A study of Arabidopsis thaliana with 4 samples.

Results

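The MOS4-associated complex (MAC) is a plant nuclear complex that joins the spliceosome, and it is the counterpart of the Prp19 complex of yeast and humans. Its core holds a U-box ubiquitin ligase, WD40 and Myb-related scaffold proteins and several RNA-binding partners, and it helps hold the active site of the spliceosome together while introns are removed. In Arabidopsis the complex was found through MOS4, a gene needed for the autoimmune state of a plant with an overactive resistance gene, and it is also known for its part in microRNA production. The 10 genes described here encode MAC3A, MAC3B, CDC5, PRL1, PRL2, MOS4, MAC5A, MAC5B, MAC5C and SKIP. They were picked by gene identifier from a table of 32833 genes, and all 10 were present and passed the filter on low counts.

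PolyA-selected mRNA came from whole Arabidopsis thaliana seedlings, 7 days old, raised without treatment on a Murashige and Skoog medium that held sucrose. Wild-type seedlings of accession Col-0 gave 2 libraries, numbered 1 and 2. Another 2, numbered 1 and 3, are from seedlings whose label reads MAC3B Q77A/D81A-GFP. These are called the mutant. Their name describes a GFP-tagged MAC3B in which the glutamine at position 77 and the aspartate at position 81 are replaced by alanine. The labels give neither the promoter of the transgene nor the MAC3A and MAC3B alleles behind it, and plants with an unmutated MAC3B-GFP were not analysed here. Both mutant titles carry the same further number, whose meaning is not stated, so the libraries may come from a single transgenic line. The effects of the substitutions, the tag, the extra MAC3B transcript and the line itself therefore cannot be told apart. Separate cultures are not stated for the replicates, so p-values measure only the spread between these samples.

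The libraries held 23436163 to 30105517 counted fragments, so 3 counts equal 0.0996 to 0.128 CPM, the count scaled to a common library total. The seedling labels were checked with marker genes. The leaf gene RBCS1A was at 13412 to 15242 TPM, a level scaled for exon length and library total, and the root gene PYK10 at 4761 to 5374 TPM. The floral genes AG and AP3 reached at most 0.133 and 0.642 TPM, and the seed storage genes CRA1 and 2S3 4.18 and 0.738 TPM. Of the markers, LHCB1.3 of the leaf was lower in the mutant (log2 fold change -0.34, adjusted p = 0.0103, edgeR), and its part in the results was not tested. Over all genes, 617 of 20483 tested changed between the genotypes (edgeR quasi-likelihood test, adjusted p under 0.05 by Benjamini-Hochberg), which is 3.01% of them, 1.68% higher and 1.33% lower in the mutant. This split moved with the scaling, from 345 higher and 272 lower genes to 507 and 194 with library totals alone.

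The coding bases around the labelled substitutions show what the label refers to and how alike both MAC3 genes are there. The bases below were read from the TAIR10.1 RefSeq genome, spliced, on the coding strand, for codons 68 to 90, with codons 77 and 81 in capitals.

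MAC3B codons 68 to 90: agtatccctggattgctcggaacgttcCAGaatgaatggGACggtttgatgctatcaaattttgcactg

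MAC3A codons 68 to 90: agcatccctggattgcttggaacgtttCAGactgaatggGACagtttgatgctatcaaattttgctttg

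In the reference MAC3B, codon 77 is CAG, a glutamine codon, at chr2:14130342-14130344, and codon 81 is GAC, an aspartate codon, at chr2:14129992-14129994, both on the minus strand. The reference residues thus match the first letters of Q77A and D81A. An intron lies between these codons. MAC3A (chr1, plus strand) has the same codons at the same numbers, and 62 of the 69 bases shown are identical. Over the whole coding sequence MAC3A and MAC3B are 83.4% identical over 1569 aligned bases, and their annotated transcripts share 0 stretches of 30 bases. The gene counts hold no base calls, so the substitutions themselves were not seen in these data.

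MAC3B was the only 1 of the 10 genes that passed this test, beside 3.01% of all genes, and PRL2 joined it only when the filter on low counts was left out. MAC3B (AT2G33340, chr2:14126141-14131224, exon length 2250 bases) encodes one of a pair of Prp19-like U-box ubiquitin ligases. It had 3604 and 3874 counts in wild type against 27890 and 28762 counts in mutant replicates 1 and 3. Scaled for library size this was 156 and 162 CPM in wild type against 1147 and 947 CPM in the mutant. The wild-type libraries lay close together and the mutant libraries far above them, with replicate 1 the higher. Its transcript was 6.59-fold higher, with a 95% interval of 5.81-fold to 7.48-fold (log2 fold change 2.72, standard error (SE) 0.0871, n = 2 in each genotype, edgeR, Benjamini-Hochberg adjusted p = 8.41e-15). The authors' deposited table gives a log2 fold change of 2.72 and an SE of 0.0893 for it. Gene counts join transcripts of the transgene with those of the endogenous locus.

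MAC3A (AT1G04510, chr1:1226483-1230947) encodes the other ligase of the pair. It had 1332 and 1410 counts in wild type against 1410 and 1812 in mutant replicates 1 and 3, or 57.6 and 58.9 CPM against 58.0 and 59.7 CPM. The genotypes overlapped. Its fold change was 1.01, with a 95% interval of 0.890 to 1.15 (edgeR, Benjamini-Hochberg adjusted p = 0.965). An increase like that of MAC3B lies far outside this interval.

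**Figure D1:**
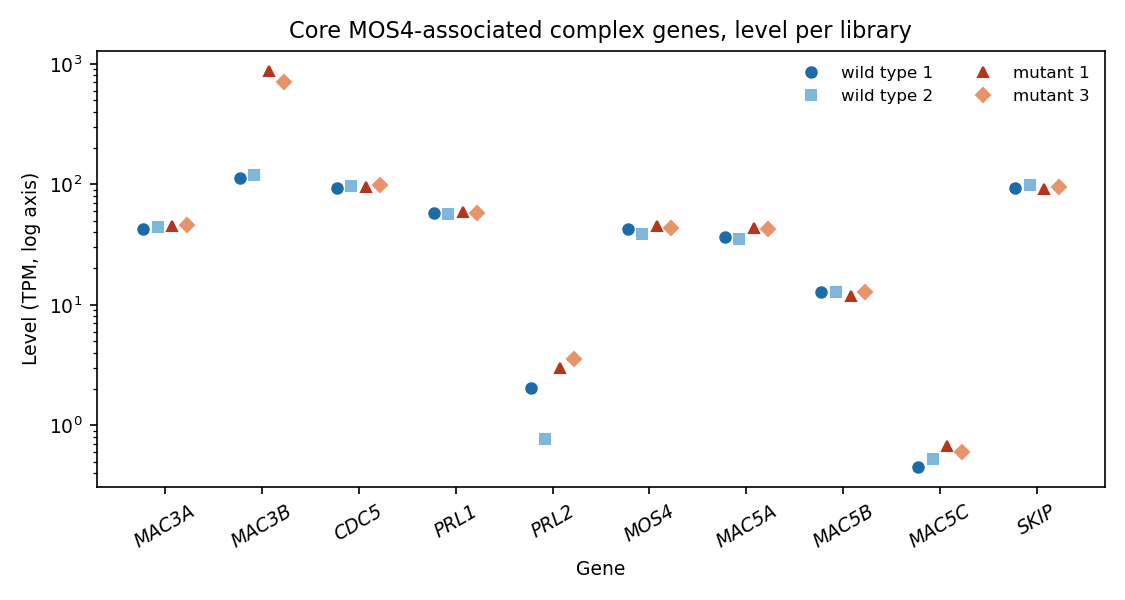
Level of each of the 10 genes in TPM on a log axis, 1 point per library (circle and square: wild type replicates 1 and 2; triangle and diamond: mutant replicates 1 and 3). MAC3B rises from 113 and 119 TPM to 878 and 708 TPM, while the points of most other genes lie almost on a line and those of PRL2 scatter near the bottom.

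The balance of the MAC3 pair shifted with MAC3B. TPM allows levels of different genes to be compared. By this measure MAC3B made up 72.6% and 72.9% of the MAC3A and MAC3B transcripts in wild type against 95.1% and 93.9% in the mutant. The summed level of the pair was 160 ± 4.71 TPM in wild type against 839 ± 121 TPM in the mutant (mean ± SD, n = 2), a ratio of 5.26. In an exact permutation test 2 against 2 libraries cannot give a two-sided p below 0.333, so shares and sums are given without a test.

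CDC5, PRL1 and MOS4 form the scaffold that the complex is built on. CDC5 (AT1G09770, chr1:3161832-3165616), a Myb-related protein, was at 184 and 188 CPM in wild type against 176 and 186 CPM in mutant replicates 1 and 3. Its libraries overlapped, and its fold change was 0.974 with a 95% interval of 0.875 to 1.08 (edgeR, Benjamini-Hochberg adjusted p = 0.878). Of its exon bases 7.72% are shared with AT1G09780 on the other strand, and the counting did not use strand.

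PRL1 (AT4G15900, chr4:9023666-9027808) encodes a WD40 protein of the core. It was at 68.5 and 66.0 CPM in wild type against 65.8 and 66.1 CPM in the mutant, again overlapping. The fold change was 0.981 with a 95% interval of 0.867 to 1.11 (edgeR, Benjamini-Hochberg adjusted p = 0.929). MOS4 (AT3G18165, chr3:6223125-6225403), the homologue of human BCAS2, was at 31.7 and 28.5 CPM in wild type against 31.6 and 31.3 CPM in the mutant. The genotypes overlapped here too. Its fold change was 1.05 with a 95% interval of 0.895 to 1.23 (edgeR, Benjamini-Hochberg adjusted p = 0.846).

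PRL2 (AT3G16650, chr3:5671018-5675438), the close paralogue of PRL1, was rare and variable. It had 54 and 21 counts in wild type against 79 and 120 in mutant replicates 1 and 3, or 2.34 and 0.877 CPM against 3.25 and 3.95 CPM. Both mutant libraries were above both wild-type libraries, as the libraries of the genotypes were separated, in either direction, for 44.7% of all genes tested. The log2 fold change was 1.17 with an SE of 0.408 and a 95% interval of 0.32 to 2.02, and it did not pass (edgeR, Benjamini-Hochberg adjusted p = 0.144). The wild-type libraries set its size, since the value was 2.03 without wild type replicate 1 and 0.62 without wild type replicate 2 (edgeR, Benjamini-Hochberg adjusted p = 0.0636 and 0.718). With no filter on low counts the gene passed (adjusted p = 0.0302, edgeR). In the authors' deposited table its log2 fold change is 1.17 with a p of 0.0208 and no adjusted p.

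PRL1 supplied 96.6% and 98.7% of the PRL transcripts in wild type against 95.2% and 94.2% in the mutant by TPM. The coding sequences of both genes are 83.7% identical over 1432 aligned bases. Their transcripts share 0 windows of 100 bases, 7 of 50 bases and 52 of 30 bases. Windows were taken at every position and overlap, so these are not counts of separate stretches. A small number of PRL1 reads could thus be counted for PRL2. Whether such reads moved with genotype was not tested.

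MAC5A, MAC5B and MAC5C encode proteins with a zinc finger and an RNA-recognition motif, related to human RBM22, which contacts RNA in the active spliceosome. MAC5A (AT1G07360, chr1:2260317-2262923) was at 40.3 and 38.9 CPM in wild type against 46.0 and 46.0 CPM in the mutant. The groups did not overlap, as for 44.7% of all genes tested and also for MAC5B and MAC5C, and the difference was small. The MAC5A log2 fold change of 0.22 (SE 0.0956, 95% interval 0.02 to 0.42) had an unadjusted p of 0.0354 and did not pass (edgeR, Benjamini-Hochberg adjusted p = 0.289). An unadjusted edgeR p under 0.05 was found for 14.7% of all genes tested. The authors' deposited table gives 0.22 on the log2 scale and an adjusted p of 0.464 for MAC5A.

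MAC5B (AT2G29580, chr2:12651826-12654336) was at 14.1 and 13.9 CPM in wild type against 12.5 and 13.8 CPM in the mutant, a fold change of 0.941 with a 95% interval of 0.755 to 1.17 (edgeR, Benjamini-Hochberg adjusted p = 0.860). MAC5C (AT5G07060, chr5:2193966-2195963) was barely transcribed, with 10 and 12 counts in wild type against 15 and 17 in the mutant. At this depth its 95% interval ran from 0.440-fold to 3.58-fold (edgeR, Benjamini-Hochberg adjusted p = 0.895), so it holds both falls and rises. By TPM, MAC5A made up 73.4% and 72.8% of the MAC5 transcripts in wild type against 77.7% and 76.0% in the mutant, and MAC5B 25.7% and 26.1% against 21.1% and 22.9%.

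**Figure D2:**
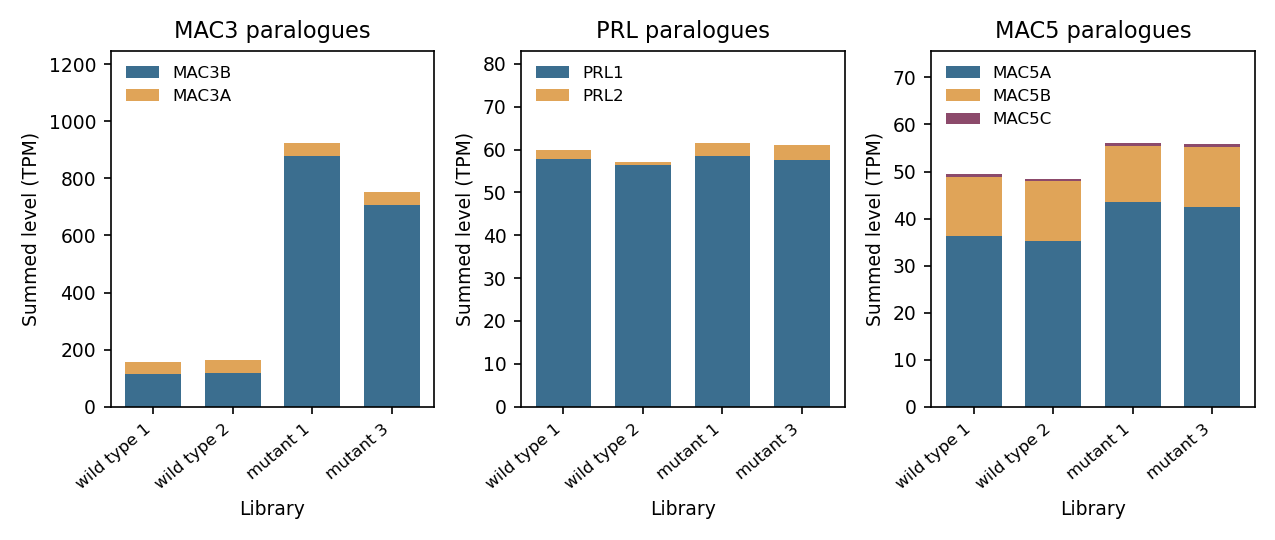
Stacked bars of the summed TPM of each paralogue group in each library (blue: MAC3B, PRL1 or MAC5A; orange: MAC3A, PRL2 or MAC5B; purple: MAC5C), each panel with its own scale from 0. The MAC3 bars grow from 156 and 163 TPM to 924 and 753 TPM through MAC3B, while the PRL bars stay between 57.1 and 61.5 TPM and the MAC5 bars between 48.5 and 56.1 TPM.

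SKIP (AT1G77180, chr1:28999577-29002143) encodes the SNW-domain protein of the complex, known in Arabidopsis for splicing of circadian clock transcripts. It was at 140 and 146 CPM in wild type against 130 and 138 CPM in the mutant. Both mutant libraries were below both wild-type libraries by a small margin. Such a separation, in either direction, held for 44.7% of all genes tested. The fold change was 0.935 with a 95% interval of 0.837 to 1.04 (edgeR, Benjamini-Hochberg adjusted p = 0.612).

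**Figure D3:**
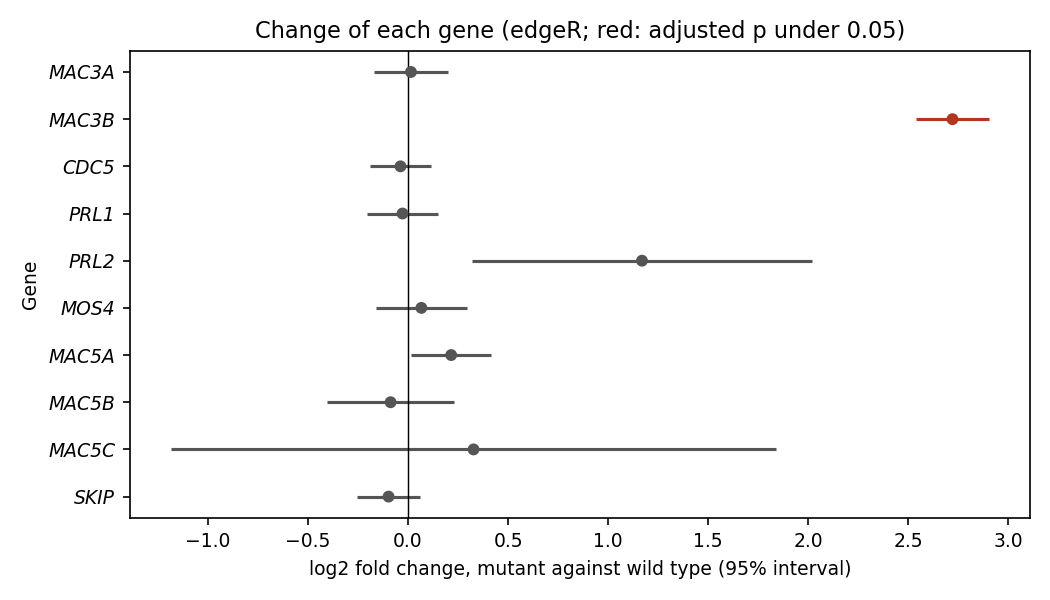
Log2 fold change of each gene, mutant against wild type, as a point with its 95% interval from the edgeR fit. MAC3B, in red, lies at 2.72, and the intervals of 7 genes include 0 while those of PRL2 (0.32 to 2.02) and MAC5A (0.02 to 0.42) lie above 0 without passing the adjusted test.

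Of the 10 genes, 1 was higher and 0 were lower in the mutant, beside 3.01% of all genes tested. Their median log2 fold change was 0.04, and it was 0.00 over all genes tested. Without MAC3B the other 9 genes summed to 383 and 384 TPM in wild type against 394 and 399 TPM in the mutant. MAC3B rose from 22.9% and 23.6% of the summed TPM of the 10 genes to 69.0% and 64.0%.

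Per length, the order of mean levels in wild type was MAC3B (116 ± 3.77 TPM, SD, n = 2), SKIP (96.2 ± 3.20), CDC5 (95.6 ± 2.42), PRL1 (57.1 ± 1.09), MAC3A (43.5 ± 0.942), MOS4 (40.8 ± 2.80), MAC5A (35.8 ± 0.693), MAC5B (12.7 ± 0.0179), PRL2 (1.40 ± 0.890) and MAC5C (0.488 ± 0.0537). SKIP and CDC5 did not differ beyond their spread, nor did MAC3A and MOS4. PRL2 lay above MAC5C in both libraries, by little more than the SD of PRL2. In the mutant MAC3B led at 793 ± 121 TPM, ahead of CDC5 (96.4 ± 2.33) and SKIP (93.1 ± 2.20), and MAC3A, MOS4 and MAC5A lay together between 42.5 and 45.6 TPM per library. Set against CDC5 as 100%, MAC3B was at 121% and 122% in wild type against 927% and 722% in mutant replicates 1 and 3. The other 8 genes stood in nearly the same proportion to CDC5 in both genotypes, apart from PRL2 at 2.16% and 0.789% against 3.13% and 3.59%, MAC5A at 38.6% and 36.3% against 46.0% and 43.3%, and MAC5C at 0.479% and 0.541% against 0.713% and 0.610%, none of which passed the test.

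Other spliceosome genes around the complex were followed in 3 lists. The list of complex-associated factors holds the homologues of Aquarius, ISY1, SYF1, SYF2, BUD31, CWC15, CWC18 and PPIL1, the crooked neck proteins and the factors that take spent spliceosomes apart. Of its 15 genes 1 rose and 0 fell, beside 1.68% and 1.33% of all genes tested, with a median log2 fold change of 0.01. The exception was AT5G45990, 1 of 4 crooked neck genes in the list, at 0.303 and 0.167 CPM in wild type against 5.06 and 3.39 CPM in mutant replicates 1 and 3. Its log2 fold change was 4.14 (SE 0.507, edgeR, Benjamini-Hochberg adjusted p = 4.54e-05). AT5G41770, the most abundant crooked neck gene, was at 64.6 and 59.2 CPM in wild type against 64.9 and 61.0 CPM in the mutant.

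The U5 list holds the spliceosome proteins PRP8, BRR2, SNU114 and U5-40K. Of its 7 genes 0 passed in edgeR, and 0 passed in DESeq2. An unadjusted edgeR p under 0.05 was found for 2 of them, beside 14.7% of all genes tested (3014 of 20483), and with so few genes nothing is read from that count. PRP8B (AT4G38780), the minor PRP8 gene, had the smallest p, at 4.24 and 4.55 CPM in wild type against 7.65 and 6.85 CPM in the mutant (edgeR, Benjamini-Hochberg adjusted p = 0.0993). The major gene PRP8A was at 366 and 390 CPM against 412 and 371 CPM. The list's median log2 fold change was 0.08.

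The list of splicing helicases and step 2 factors holds the homologues of PRP2, PRP16, PRP22, PRP43, PRP17, PRP18 and SLU7 and a further DEAH helicase. Of its 14 genes 12 were tested, and 0 passed in edgeR and 0 in DESeq2. An unadjusted edgeR p under 0.05 was found for 3 of the 12, again beside 14.7% of all genes, and nothing is read from that count either. AT3G62310, a PRP43-like helicase gene, had the smallest p, with a log2 fold change of 0.26 (SE 0.0862, edgeR, Benjamini-Hochberg adjusted p = 0.111). The list's median log2 fold change was 0.01.

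For MAC3B, the genes with the most similar pattern over the 4 libraries, by the distance between centred log2 CPM values, were AT3G48835, AT5G46060, AT1G69680, AT1G28890 and AT1G51913, at distances of 0.296 to 0.422. AT5G46060 was at 1.56 and 1.38 CPM in wild type against 9.01 and 9.51 CPM in the mutant. Its identifier lies close to that of AT5G45990, the crooked neck gene that rose, on the same chromosome. Whether the changes of AT5G46060 and AT5G45990 belong together was not tested. AT1G69680, which encodes a Mog1-like protein, was at 7.49 and 6.22 CPM against 42.0 and 44.9 CPM. The other 3 had at most 0.0417 CPM in a wild-type library and 0.411 to 0.699 CPM in the mutant, so their likeness rests on few reads. Likeness over 4 libraries is a description only.

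The introns of these genes were read from the authors' intron score, a coverage measure whose making is not stated. Introns of 8 of the 10 genes were scored, 81 in all. The scores used here held no intron of CDC5 or SKIP, so introns of these genes could not be followed. Of the 81, 78 match a RefSeq intron and 79 run from GT to AG, with lengths from 38 to 433 bases. In each score column, the product of score and length is, for 100% of introns above 0 and within 0.02, an integer times a factor of that column (10.1 to 12.9). Score divided by that factor is called depth here, the mean number of reads over each base of the intron. Since the factor differs between columns, depth is not scaled between them. The columns are named by genotype and number, and these names do not tie them to single libraries. The factors were 12.9 and 12.5 in the wild-type columns and 12.7 and 10.1 in the mutant columns. The counted totals were 23436163 and 24245300 in wild type replicates 1 and 2, and 23936296 and 30105517 in mutant replicates 1 and 3. Taken in this order, the larger the total, the smaller the factor. The columns were still used by genotype only, and a match of columns to libraries was not tested.

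The introns that the text turns on are shown on the coding strand from TAIR10.1, with the first and last 2 bases, the splice sites, in capitals. The first 2, both in PRL1, have the largest differences between genotypes, and the other 2 are the introns with signal in every column.

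PRL1 intron 7, chr4:9025238-9025451: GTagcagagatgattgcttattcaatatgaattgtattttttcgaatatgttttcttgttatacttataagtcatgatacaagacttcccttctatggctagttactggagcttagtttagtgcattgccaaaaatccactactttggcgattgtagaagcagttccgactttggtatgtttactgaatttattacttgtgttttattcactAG

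PRL1 intron 9, chr4:9025714-9025783: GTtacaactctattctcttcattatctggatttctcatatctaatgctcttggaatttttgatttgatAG

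PRL1 intron 16, chr4:9027006-9027270: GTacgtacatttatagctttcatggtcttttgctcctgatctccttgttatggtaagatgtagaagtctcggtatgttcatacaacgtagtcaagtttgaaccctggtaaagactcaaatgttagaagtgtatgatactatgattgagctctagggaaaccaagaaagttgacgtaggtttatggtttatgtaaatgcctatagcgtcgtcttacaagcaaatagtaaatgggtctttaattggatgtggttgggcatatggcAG

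MAC3B intron 15, chr2:14127047-14127147, minus strand: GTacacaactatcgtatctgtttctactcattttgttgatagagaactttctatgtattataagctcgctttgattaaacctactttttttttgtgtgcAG

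Most introns of the complex genes had no coverage at all. Of the 81 introns, 33 were above 0 in at least 1 column, 16 and 8 in the wild-type columns and 14 and 19 in the mutant columns. Many introns of other genes were at 0 too, since 41390 of all 79373 scored introns had signal in some column. By column, the share of all scored introns above 0 was 29.9% and 28.7% (wild type), then 27.7% and 35.5% (mutant). The second mutant column was thus the highest over all introns as well. Whether the members differ from other genes in these shares was not tested. The 33 member introns above 0 had a median length of 114 bases and a median GC content of 33.5%, and the 48 at 0 had 120.5 bases and 33.6%. In the limma test on log2(score + 1), 0 of the 33 passed, as did 0 of all 41390 introns tested, or 0% (739, or 1.79%, had an unadjusted p under 0.05). The smallest unadjusted p among the 33 was 0.110, so differences between the genotypes were not detectable here.

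MAC3B introns stayed thinly covered although its transcript was 6.59-fold higher. Of its 17 scored introns 9 were above 0 in some column. The mean depth over all 2834 intron bases was 0.825 and 0.103 in the wild-type columns and 0.192 and 0.647 in the mutant columns, so the genotypes overlapped. Intron 15, the only MAC3B intron with signal in every column, had a depth of 2.00 and 2.02 in wild type against 0.792 and 1.16 in the mutant. The gene's exon level rose by 2.73 on the scale of log2(RPKM + 1), where RPKM is the count scaled by exon length and library total, while the intron level changed by -0.02 on the scale of log2(score + 1). The difference between these changes was -2.76 with an SE of 1.07 that holds the intron spread only, and it did not pass (limma, unadjusted p = 0.0571, Benjamini-Hochberg adjusted p = 0.890). It was -1.58 without the first wild-type score column and -3.93 without the second, so single columns decide its size. Over all 10969 genes tested this way 0 passed, or 0%, and 629, or 5.73%, had an unadjusted p under 0.05 (limma).

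**Figure D4:**
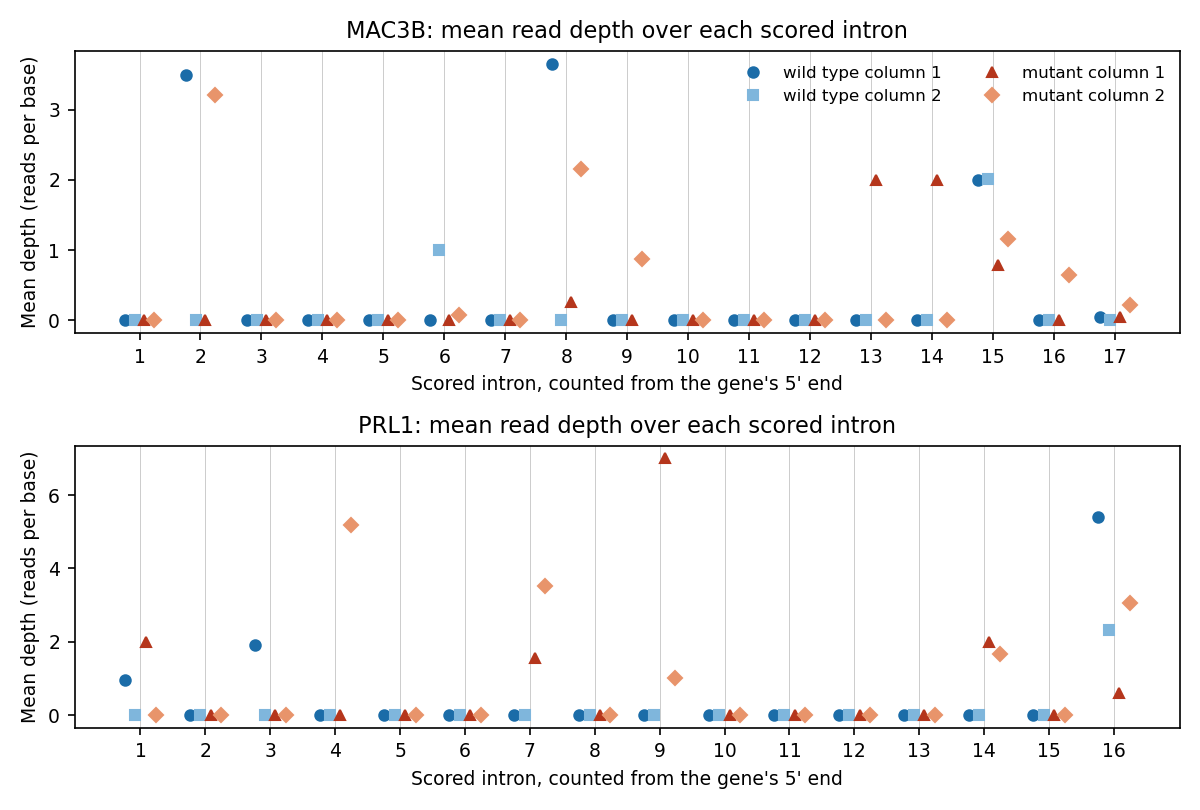
Mean read depth over each scored intron of MAC3B (top, 17 introns) and PRL1 (bottom, 16 introns), counted from the 5′ end, 1 point per score column (circle and square: wild type; triangle and diamond: mutant). Most points lie at 0, no MAC3B intron exceeds a depth of 3.66, and introns 7 and 9 of PRL1 have signal in both mutant columns and none in wild type.

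PRL1 held all 3 member introns beyond a difference of 4 in the authors' mean log2(score + 1), the limit of their deposited list, all higher in the mutant. Of all scored introns, 2.94% pass that limit in either direction and 1.79% with the mutant higher, beside 3 of 81 member introns, or 3.70%, all in the same gene. PRL1 intron 7 had scores of 0 and 0 in wild type against 19.8 and 35.6 in the mutant. Intron 9, at 70 bases the shortest of the covered member introns, had 0 and 0 against 88.6 and 10.1, which is a depth of 7.00 and 1.00. These introns, like the third beyond the limit, were seen in both mutant columns and in neither wild-type column, introns 7 and 9 at depths of 1.00 to 7.00. Scores of this size pass the limit only with signal in both mutant columns and little in wild type. The pattern thus follows from the limit and adds nothing to it. The difference of intron 9 was 3.47, under the limit, without the first mutant column. The limma adjusted p was 0.625 for both (Benjamini-Hochberg).

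The last PRL1 intron, 16, had a mean difference of -1.47 on the scale of log2(score + 1). Its scores were 69.8 and 28.9 in wild type against 7.60 and 30.8 in the mutant, with the genotypes overlapping. Over all 16 PRL1 introns the mean depth was 0.788 and 0.277 in wild type against 0.638 and 1.07 in the mutant, so the genotypes overlapped. The mean score was 10.2 and 3.46 in wild type against 8.08 and 10.8 in the mutant, which overlapped as well. The intron level of PRL1 changed by 0.55 against 0.01 for its exons, a difference of 0.55 with an SE of 0.826 (limma, Benjamini-Hochberg adjusted p = 0.955).

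Of the introns of the other genes 0 passed in limma or the authors' limit. MOS4 intron 1 (chr3:6223488-6223920) had scores of 27.8 and 47.6 in wild type against 0 and 4.58 in the mutant, the largest fall of a member intron (-3.99 on the scale of log2(score + 1), limma, Benjamini-Hochberg adjusted p = 0.625). MOS4 intron 3 had 0 and 37.2 in wild type against 0 and 86.1 in the mutant, the highest score in MOS4. In MAC3A the highest mean was that of intron 12 (chr1:1229338-1229503), at 18.2 and 27.1 in wild type against 0 and 46.5 in the mutant. The largest MAC3A difference was that of chr1:1230380-1230464, at 49.5 and 1.18 against 0 and 0.

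In MAC3B the highest mean score was that of intron 2 (chr2:14130560-14130806), at 45.2 and 0 in wild type against 0 and 32.4 in the mutant. Introns 13 and 14 had its largest differences, each at 0 in wild type against 25.3 and 0 in the mutant. In MAC5A the highest mean, 23.4 and 0 against 58.9 and 0, came from a single column of each genotype. The largest MAC5A difference, 49.8 and 0 against 0 and 0, came from a single column. MAC5B, MAC5C and PRL2 had a single covered intron each, in 1 column, with scores of 14.0 in the mutant, 19.9 in wild type and 12.9 in wild type.

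None of the 4690 retained-intron events of the authors' deposited rMATS table lay in a member (0 events). In the 3 lists of other spliceosome genes there was 1 event, in AT3G62310, with a false discovery rate of 0.924 in the authors' deposited table, where 774 events are under 0.05. The groups of that table carry numbers and no genotype, so no direction is given.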

How the data were processed

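The authors deposited raw fragment counts. Per the file headers, featureCounts 2.0.1 counted read pairs over exons (Ensembl Plants, TAIR10), with no strand option. The submitters' processing notes name HISAT2 2.2.0, STAR 2.7.9a and DESeq2 1.30.1. Which aligner made which file is not given in the sources used here. Other values deposited are exon length per gene, the authors' DESeq2 table (a mean signal, log2 fold changes, a Wald score, p-values), intron scores (a coverage signal whose making is not stated) with means on the log2 scale, and an rMATS table with p-values and a score for the difference of inclusion. Another 18 columns of single-library values were not used.

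Counts were tested in R 4.3.3 with edgeR 4.0.16 (filterByExpr, TMM, glmQLFit, glmQLFTest, genotype as only term, all 4 libraries, threshold 0.05 after Benjamini-Hochberg adjustment over 20483 genes). CPM use TMM-scaled totals. TPM and RPKM were computed from counts and deposited exon lengths. The 95% intervals come from the quasi-likelihood SE. Intron scores were tested with limma 3.58.1 (moderated with a trend) on log2(score + 1), keeping introns with any signal. The plan to subtract exon from intron levels library by library was not followed, since score column names do not give the library. The mean exon level of the genotype was subtracted instead. A first fit of exon and intron columns in 1 limma model gave false calls on simulated data and was dropped. In it MAC3B had an unadjusted p under 0.05 and no member passed after adjustment. On simulated data edgeR recovered most changed genes, while limma recovered introns only when their spread was small. Sequences came from the RefSeq TAIR10.1 genome, whose introns were matched by coordinate, with biopython 1.88. Members and lists were chosen with earlier results of these data known. Named were all members, up to 3 passing genes per list (or that with the smallest p), the 5 genes most like MAC3B, and the introns highest in mean score or largest in difference per member. Intervals and floors cover counting error and the spread of these libraries only. The alternatives were DESeq2 1.42.0, scaling by RLE or by totals alone, other filters and pseudocounts, and each library left out. The sequence and values of 1 further PRL1 intron are not reported here.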

Additional observations from a re-analysis of the deposited data

How the results depend on the processing

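MAC3B kept its direction and its call under every alternative run, with log2 fold changes of 2.58 to 2.85. With no filter on low counts 2 members passed instead of 1 (PRL2 joining), 1 U5 gene passed instead of 0, and 1090 genes changed (570 higher, 520 lower) against 617 (345 and 272). Leaving out 1 library gave 135 to 1848 changed genes (84 to 887 higher, 51 to 961 lower), 1 member, 1 to 3 complex-associated genes and 0 to 2 helicase and step 2 genes. The lone library left was assumed to vary like the others, and without mutant replicate 3 (1848 genes) or mutant replicate 1 (1006) the spread came from wild type alone. The signs of small changes were not stable. PRL1 was at 0.0087 with library totals alone, and without 1 library MAC3A ranged from -0.0073 to 0.034, MOS4 from -0.0094 to 0.14 and CDC5 from -0.082 to 0.0032. For introns, 4 passed among those above 0 in all 4 columns and 7 with no filter, none in a member. Leaving out 1 score column gave 0 to 7362 introns and 0 to 9 member introns, the highest without the first mutant column, where the spread came from wild-type pairs often both at 0. Intron minus exon changes ran from -3.93 to -1.58 for MAC3B, -2.34 to 1.19 for MAC3A, -4.60 to 0.38 for MOS4, -0.12 to 1.21 for PRL1 and -2.80 to 2.20 for MAC5A (2.14 without the second mutant column). MAC3B's share of its pair in wild type was 73.2% by counts without length. No paired analysis was possible because the genotypes share fewer than 2 replicate numbers. Depth limits MAC5C, PRL2 and all introns.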
